A study of Homo sapiens with 12 samples.

Results

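Levels of 10 mRNAs known from undifferentiated stem cells or early germ cells were followed after knockdown of OCT4. The cells were H1, an established line of human embryonic stem cells. The genes were DPPA2, DPPA3, DPPA4, DPPA5, UTF1, L1TD1, LIN28A, LIN28B, TRIM71 and USP44. No DPPA3 probe reached a detection p under 0.01, in control arrays either, and DPPA5 did so on 2 of 3 control arrays at day 2. The genes were chosen by name, with earlier results of these arrays known. Every array probe annotated to them was used, 14 probes among the 18852 genes named on the array. Cells received Fugene and either an shRNA against OCT4, the transcription factor encoded by POU5F1, or, as the negative control, one against luciferase, a firefly enzyme with no human counterpart. RNA was taken 3 or 2 days after transfection and hybridised to Illumina bead arrays, giving OCT4 shRNA at day 3, luciferase shRNA at day 3, OCT4 shRNA at day 2 and luciferase shRNA at day 2, with 3 arrays each. These groups are called knockdown and control below. The submitters set out to identify mRNA targets of OCT4. All cells were H1, no untransfected cells are among the groups, and a single OCT4 shRNA is labelled, so loss of OCT4 and other effects of this shRNA cannot be told apart. Whether replicates came from separate cultures is not labelled, and the p-values below therefore describe the scatter among these arrays, some or all of which may be technical.

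The 10 genes are grouped together because their transcripts are abundant in undifferentiated stem cells or early germ cells and scarce in most adult tissues. DPPA2 and DPPA4 are chromatin proteins with a SAP domain that bind each other and, in mouse, are needed to prime developmental and early embryonic genes. LIN28A and LIN28B bind precursors of let-7 microRNAs and block their maturation, and let-7 in turn silences growth and fetal genes, among them LIN28B and TRIM71. OCT4 works with SOX2 and NANOG at the enhancers of many stem cell genes, and its loss leads human embryonic stem cells to differentiate.

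Sequences near the transcription starts of these genes were set beside the array data because most of them fell together. RefSeq promoter windows of assembly GRCh38.p14, each covering 250 bases before to 50 bases after a start, were found for 8 of the 10 genes (9 windows, of which 2 belong to LIN28B). LIN28A and USP44 are named only. The windows of 5 genes are shown, 5′ to 3′ on the strand of the gene, for the neighbouring genes DPPA2 and DPPA4, for UTF1 and L1TD1, which also fell, and for LIN28B, which did not pass the test. They lie at chr3:109316468-109316767 (DPPA2, minus strand), chr3:109337497-109337796 (DPPA4, minus strand), chr10:133229967-133230266 (UTF1, plus strand), chr1:62194599-62194898 (L1TD1, plus strand) and chr6:104956857-104957156 (the downstream LIN28B window, plus strand). Capitals mark matches, on either strand, to the motifs described in the next paragraph.
DPPA2: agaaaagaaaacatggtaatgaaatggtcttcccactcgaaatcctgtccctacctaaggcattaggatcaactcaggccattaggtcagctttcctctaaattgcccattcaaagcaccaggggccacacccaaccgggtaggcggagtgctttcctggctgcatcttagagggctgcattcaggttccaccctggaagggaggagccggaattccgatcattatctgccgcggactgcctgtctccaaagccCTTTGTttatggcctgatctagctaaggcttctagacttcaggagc
DPPA4: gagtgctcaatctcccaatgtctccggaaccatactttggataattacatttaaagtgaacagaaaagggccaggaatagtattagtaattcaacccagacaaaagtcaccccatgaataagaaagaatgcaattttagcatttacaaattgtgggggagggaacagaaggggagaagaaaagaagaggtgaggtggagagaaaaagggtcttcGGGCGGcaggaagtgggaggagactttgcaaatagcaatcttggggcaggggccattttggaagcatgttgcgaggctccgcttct
UTF1: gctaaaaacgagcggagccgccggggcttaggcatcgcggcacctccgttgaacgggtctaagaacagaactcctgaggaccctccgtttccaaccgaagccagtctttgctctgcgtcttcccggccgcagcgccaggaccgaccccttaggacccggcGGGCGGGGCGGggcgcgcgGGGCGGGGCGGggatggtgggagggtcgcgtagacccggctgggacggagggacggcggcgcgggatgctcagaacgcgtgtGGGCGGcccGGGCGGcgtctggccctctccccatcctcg
L1TD1: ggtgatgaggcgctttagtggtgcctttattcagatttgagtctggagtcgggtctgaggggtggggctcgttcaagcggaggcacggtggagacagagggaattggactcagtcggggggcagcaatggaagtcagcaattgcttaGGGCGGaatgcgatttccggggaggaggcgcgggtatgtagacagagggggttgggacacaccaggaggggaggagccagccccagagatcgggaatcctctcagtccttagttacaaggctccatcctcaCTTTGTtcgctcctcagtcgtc
LIN28B: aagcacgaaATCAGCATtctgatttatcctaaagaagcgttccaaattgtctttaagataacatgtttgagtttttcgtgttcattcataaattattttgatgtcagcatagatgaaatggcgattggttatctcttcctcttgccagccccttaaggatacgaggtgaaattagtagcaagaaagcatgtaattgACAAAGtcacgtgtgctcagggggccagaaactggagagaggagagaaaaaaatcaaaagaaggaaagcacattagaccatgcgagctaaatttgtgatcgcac

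In all, 6 short patterns were searched on both strands of the windows: the POU octamer ATGCAAAT, a looser form of it, ATGCNNAT, which also finds every exact octamer, the SOX cores CATTGT and ACAAAG, the TATA box TATAAA and the SP1 core GGGCGG. The exact octamer was in 0 of the 9 windows and in 1.77% of all 35116 RefSeq windows of the same length of 300 bases. The looser octamer was in 1 window, the LIN28B one shown, against 7.98% of all windows. ACAAAG or its complement was in the windows of DPPA2, L1TD1 and LIN28B, against 16.1% of all windows, and CATTGT in the other LIN28B window, against 10.8%. TATAAA was in none of the 9 and in 11.5% of all windows, while GGGCGG was in 5 of the 9, those of DPPA4, DPPA5, UTF1, L1TD1 and LIN28B, and in 45.0% of all windows. The UTF1 window held 71.7% G and C with 39 CpG dinucleotides, the DPPA4 window 45.3% with 5, and the median window 58.7% with 14. These letter matches are descriptions of the windows, and enhancers were not examined.

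POU5F1, the targeted gene, had a normalised log2 intensity of 10.25 ± 0.29 in knockdown against 13.21 ± 0.11 in control arrays at day 3, which left 12.9% of the control level, and of 10.69 ± 0.34 against 12.92 ± 0.22 at day 2, which left 21.4% (SD, n = 3 per group). Each array detected 13343 to 14969 of its 48803 probes, and replicates within a group correlated at 0.974 to 0.992 over the tested genes. The second principal component, 17.2% of the variance, set the replicate 3 array of every group apart from the other arrays of its group. Of the 14 probes, 10 met the filter of 3 or more arrays with a detection p under 0.01, and they represent 9 genes. The 9 genes did not pass the filter only through their brightest group, since each was detected on at least 4 arrays outside it. The number of arrays limits the precision of every value that follows.

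At day 3, 8 of the 9 tested genes fell in knockdown cells and LIN28B did not pass the test. Across all 10506 tested genes, 29.6% changed (limma, Benjamini-Hochberg adjusted p under 0.05), 15.3% being lower and 14.3% higher. The median change of the 9 genes was -1.46 on the log2 scale, against -0.07 for all tested genes, and it stayed at -1.46 with DPPA5 set at the bound given below. At day 2, 5 of the 9 fell (DPPA2, DPPA4, UTF1, L1TD1 and USP44), against 8.66% of all tested genes that changed, 2.97% falling and 5.69% rising. The median change of the 9 was then -0.90, against -0.04 for all genes. The genes were chosen with earlier results of these arrays known, so their contrast with all tested genes is not independent evidence. With the replicate 3 arrays left out, 7 of the 9 fell at day 3 and 4 at day 2. In bulk RNA, fewer cells that express a gene and less of its RNA per cell cannot be told apart.

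**Figure D1:**
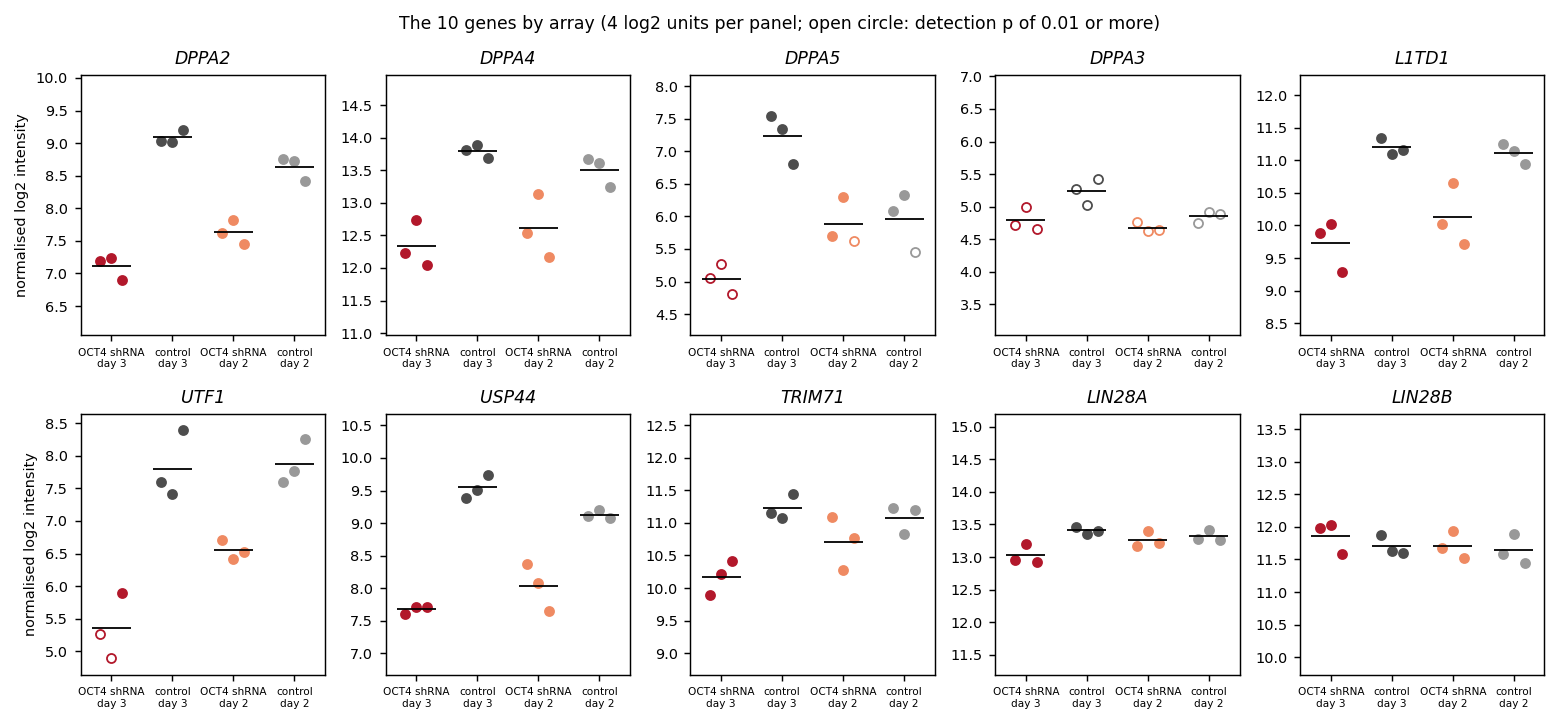
Normalised log2 intensity of the 10 genes on each array (one point an array, replicates 1 to 3 from left to right; line, group mean; 4 log2 units a panel), with open circles where the detection p was 0.01 or more. DPPA2, DPPA4, L1TD1, UTF1 and USP44 show no overlap between knockdown and control arrays on either day. DPPA5, TRIM71 and LIN28A separate at day 3 only, and LIN28B overlaps on both days. The share of all tested genes without overlap was not counted.

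DPPA2 and DPPA4, the SAP-domain pair, are adjacent protein-coding genes on chromosome 3 and fell on both days. DPPA2 read 7.19, 7.24 and 6.90 in day 3 knockdown arrays (replicates 1 to 3), against 9.04, 9.02 and 9.21 in day 3 control arrays. At day 2 it read 7.62, 7.81 and 7.46 in knockdown arrays, against 8.76, 8.72 and 8.42 in control arrays. Every knockdown array lay below every control array of its day. The day 3 change was -1.98 (SE 0.15, limma adjusted p = 4.69e-07), which left 25.4% of the control level (95% confidence interval 20.3 to 31.8%). The day 2 change was -1.01 (SE 0.15, adjusted p = 0.00073) and left 49.8%. Only 34 tested genes had a lower fitted change than DPPA2 at day 3.

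DPPA4 was among the bright probes, with raw intensities from 4247 to 16168. On the log2 scale it read 12.23, 12.74 and 12.05 in day 3 knockdown arrays and 13.81, 13.89 and 13.69 in day 3 control arrays. The day 2 values were 12.54, 13.13 and 12.16 in knockdown arrays and 13.66, 13.62 and 13.25 in control arrays. The groups did not overlap on either day, although the replicate 2 knockdown array at day 2 came within 0.12 of the lowest control array. DPPA4 fell by 1.46 at day 3 (SE 0.23, limma adjusted p = 3.70e-04; 36.4% left, interval 25.7 to 51.6%) and by 0.90 at day 2 (SE 0.23, adjusted p = 0.0284; 53.7% left). The day 2 call was lost without knockdown replicate 1 (adjusted p = 0.0984) or 3 (0.112), without control replicate 1 (0.114) or 2 (0.0972), with replicates 1 and 2 alone (0.0555), with no detection filter (0.0529) and with only the day 2 arrays fitted (0.0505). Across the 12 arrays DPPA2 and DPPA4 correlated at r = 0.95, and their deviations from the group means at r = 0.79 (the same arrays for both genes, given as a description).

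DPPA5, which encodes a KH-domain RNA-binding protein, separated the groups at day 3 alone. In day 3 knockdown arrays it read 5.06, 5.27 and 4.81, with no array above background, against 7.54, 7.34 and 6.80 in day 3 control arrays, all detected. At day 2 it read 5.70, 6.30 and 5.63 in knockdown arrays, against 6.09, 6.33 and 5.45 in control arrays, with 2 of 3 detected in each group. The control arrays were thus higher at day 3 than at day 2, while the day 2 groups overlapped. Against the lowest detectable signal, DPPA5 was at least 2.66-fold lower in knockdown at day 3 (limma adjusted p = 2.74e-05; fitted change -2.18, SE 0.26). The bound replaces the probe's value on each knockdown array by that array's dimmest detected probe wherever that probe is brighter. At day 2 the change was -0.08 (SE 0.26, adjusted p = 0.919, interval -0.63 to 0.48). Without background correction the fitted day 3 change was -1.35.

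DPPA3, a maternal and germ cell factor that in mouse restrains the DNA methylation machinery, was not well above background on any of the 12 arrays. Its brighter probe read 4.72, 5.00 and 4.66 in day 3 knockdown arrays and 5.27, 5.02 and 5.42 in day 3 control arrays, with 4.77, 4.63 and 4.64 in day 2 knockdown arrays and 4.76, 4.92 and 4.89 in day 2 control arrays. The lowest detection p of this probe was 0.0211, and that of the other DPPA3 probe was 0.0501. No fold is given, and a DPPA3 change was not detectable on these arrays. Of 8 genes fixed as its partners in maintenance DNA methylation, 7 were on the array and 6 were tested. At day 3, TET1, which oxidises methylcytosine, fell by 1.05 (SE 0.18, adjusted p = 0.0007), and USP7, which stabilises UHRF1 and DNMT1, by 0.60 (SE 0.19, adjusted p = 0.0302). TET1 also fell at day 2, by 0.77 (adjusted p = 0.0171), but none of the 6 passed at day 2 with replicates 1 and 2 alone. Tested on its own, a second TET1 probe gave -0.82 at day 3 (adjusted p = 0.00108) and -0.51 at day 2 (adjusted p = 0.0534). Of all tested genes 15.3% fell at day 3 and 2.97% at day 2, and a list of 6 is too short to weigh against these shares. The other 4, UHRF1, UHRF2, DNMT1 and PCNA, did not pass on either day.

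L1TD1, an RNA-binding protein derived from a LINE-1 open reading frame that partners LIN28A in human embryonic stem cells, fell on both days. Its day 3 values were 9.88, 10.03 and 9.28 in knockdown arrays and 11.35, 11.09 and 11.15 in control arrays. Its day 2 values were 10.02, 10.66 and 9.71 in knockdown arrays and 11.25, 11.14 and 10.95 in control arrays. Control arrays spanned at most 0.31 within a day, and knockdown arrays up to 0.94, without overlap. The change was -1.46 at day 3 (SE 0.23, limma adjusted p = 3.65e-04; 36.2% left, interval 25.5 to 51.4%) and -0.98 at day 2 (SE 0.23, adjusted p = 0.018; 50.6% left). At day 2 the call was lost without knockdown replicate 1 (adjusted p = 0.0739) or 3 (0.0758) or control replicate 1 (0.0773) or 2 (0.0597). Of all gene pairs among the 9, L1TD1 and DPPA4 moved most alike, at r = 0.98 across the 12 arrays and 0.89 for deviations from the group means.

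UTF1, a chromatin-bound factor that in mouse embryonic stem cells tunes bivalent genes, fell on both days, by the most of the 9 genes in the fit. At day 3 it read 5.26, 4.89 and 5.89 in knockdown arrays, of which only replicate 3 was detected, and 7.60, 7.41 and 8.39 in control arrays. At day 2 it read 6.71, 6.42 and 6.53 in knockdown arrays and 7.59, 7.76 and 8.26 in control arrays. No knockdown array reached the level of a control array on either day. The change was -2.45 at day 3 (SE 0.28, limma adjusted p = 2.21e-05; 18.3% left, interval 12.0 to 27.8%) and -1.32 at day 2 (SE 0.28, adjusted p = 0.00911; 40.0% left). Because its knockdown signal lay near background, its day 3 size moved with the correction, to -1.64 without any and -1.77 with an offset of 50 in place of 16, and the call held. Without any correction DPPA2 (-1.67) and USP44 (-1.66) had the larger day 3 falls, and on the authors' log2 values UTF1 and DPPA2 were both at -1.60. DCP1A, the decapping factor that UTF1 binds in mouse cells, changed by 0.22 (adjusted p = 0.229) at day 3 and 0.09 (adjusted p = 0.769) at day 2.

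USP44, which removes ubiquitin from histone H2B and restrains CDC20 at the spindle checkpoint, fell on both days. Its brighter probe read 7.61, 7.72 and 7.72 in day 3 knockdown arrays and 9.39, 9.51 and 9.74 in day 3 control arrays. At day 2 it read 8.38, 8.08 and 7.65 in knockdown arrays and 9.11, 9.20 and 9.07 in control arrays. The day 3 knockdown arrays lay close together, whereas those of day 2 spread over 0.73. The change was -1.87 at day 3 (SE 0.17, limma adjusted p = 2.69e-06; 27.4% left, interval 21.3 to 35.4%) and -1.09 at day 2 (SE 0.17, adjusted p = 0.00101; 47.0% left). Tested on its own, a second USP44 probe gave -1.65 at day 3 (adjusted p = 9.05e-05) and -0.63 at day 2 (adjusted p = 0.113), so that the day 2 fall rests on the brighter probe.

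The genes that act with USP44, in histone H2B ubiquitination or at the spindle checkpoint, did not move as one. Of 21 listed, 20 were on the array and 19 were tested. At day 3, 2 rose and 3 fell, and 14 did not pass, with a median change of -0.15. Of all tested genes 14.3% rose and 15.3% fell, and counts of this size are near that background. USP3, another deubiquitinase of H2A and H2B, rose by 1.34 (SE 0.25, adjusted p = 0.00124), and FZR1, the other activator of the anaphase-promoting complex, by 1.00 (SE 0.16, adjusted p = 3.70e-04). FZR1 was detected on 3 of 3 knockdown arrays and 1 of 3 control arrays. ANAPC4, a subunit of that complex, fell by 0.62 (adjusted p = 0.0086), USP7 by 0.60 (adjusted p = 0.0302) and BUB3, a checkpoint protein, by 0.51 (adjusted p = 0.00903). At day 2, USP3 (0.95, adjusted p = 0.03) and FZR1 (0.89, adjusted p = 0.00295) rose and none fell, and with replicates 1 and 2 alone 1 rose. CDC20, the protein that USP44 restrains, changed by -0.26 at day 3 (adjusted p = 0.272).

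**Figure D2:**
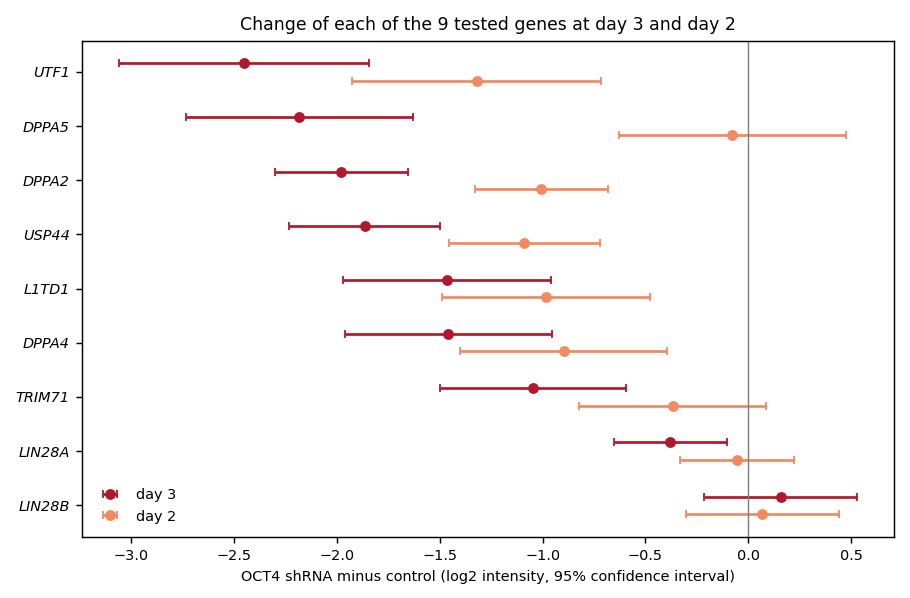
Knockdown minus control on the log2 scale for the 9 tested genes (points, fitted change; bars, 95% confidence interval; n = 3 arrays per group), day 3 above day 2. The day 3 changes run from -2.45 for UTF1 to 0.16 for LIN28B, and LIN28A, at -0.38, is the smallest of the falls that passed.

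TRIM71, a TRIM-NHL protein that silences mRNAs, fell at day 3. It read 9.90, 10.21 and 10.41 in day 3 knockdown arrays and 11.15, 11.07 and 11.44 in day 3 control arrays. The day 2 values were 11.10, 10.28 and 10.77 in knockdown arrays and 11.22, 10.83 and 11.20 in control arrays. The day 3 groups were separate and the day 2 groups overlapped. The change was -1.05 at day 3 (SE 0.21, limma adjusted p = 0.00206; 48.4% left, interval 35.3 to 66.2%) and -0.37 at day 2 (SE 0.21, adjusted p = 0.373). Its other 2 probes were undetected on all 12 arrays (log2 4.39 to 5.01). Among mRNAs that TRIM71 silences in mouse cells, CDKN1A, a cell cycle inhibitor, was 0.55 higher in knockdown than in control arrays at day 3 (SE 0.13, adjusted p = 0.00689). EGR1, an immediate-early factor, was 0.46 higher (SE 0.15, adjusted p = 0.0299). At day 2 these changes were 0.17 (adjusted p = 0.543) and 0.03 (adjusted p = 0.947). Of all tested genes 14.3% rose at day 3. Mean EGR1 was 7.64 in knockdown and 7.18 in control arrays at day 3, against 7.87 and 7.84 at day 2. Its day 3 difference thus came with a lower control level and not with a higher knockdown level. A link of either change to TRIM71 was not tested.

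At day 3 the LIN28 paralogs had the smallest changes of the 9 tested genes. At day 2 the change of DPPA5 was about as small (-0.08, limma adjusted p = 0.919). LIN28A was bright, with raw intensities of 7820 to 11564, and read 12.96, 13.20 and 12.93 in day 3 knockdown arrays against 13.47, 13.36 and 13.40 in day 3 control arrays. At day 2 it read 13.17, 13.40 and 13.21 in knockdown arrays and 13.28, 13.42 and 13.26 in control arrays. The day 3 groups did not overlap, by a margin of 0.16, and the day 2 groups did. LIN28A fell by 0.38 at day 3 (SE 0.13, limma adjusted p = 0.0386; 76.9% left, interval 63.5 to 93.1%) and changed by -0.05 at day 2 (SE 0.13, adjusted p = 0.878). This day 3 call was lost in 10 of 24 alternatives, whose adjusted p ranged from 0.0134 to 0.17. It was lost without knockdown day 3 replicate 1 (0.119) or 3 (0.121), without control day 3 replicate 1 (0.111), 2 (0.0698) or 3 (0.0764), without control day 2 replicate 3 (0.0506) and with replicates 1 and 2 alone (0.17). Median scaling (0.0664), the authors' log2 values (0.0738) and a fit of the 2 day 3 groups alone (0.0733) also lost it.

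LIN28B, the second LIN28 paralog, did not pass the test on either day. It read 11.98, 12.03 and 11.58 in day 3 knockdown arrays and 11.87, 11.64 and 11.60 in day 3 control arrays. On day 2 arrays the values were 11.67, 11.93 and 11.52 with the OCT4 shRNA and 11.58, 11.90 and 11.44 with the luciferase shRNA. Knockdown and control arrays overlapped throughout. The change was 0.16 at day 3 (SE 0.17, limma adjusted p = 0.533, interval -0.21 to 0.53) and 0.07 at day 2 (SE 0.17, adjusted p = 0.891, interval -0.31 to 0.44). The day 3 interval leaves out any fall below 86.3% of the control level.

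Mature let-7 microRNAs, which LIN28 proteins hold back, were not measured, so their protein machinery and known target mRNAs were examined. The target list names genes known to be repressed by let-7, and no transcript was searched for matches to the microRNA. Mature let-7a, credited to RefSeq, is shown with its seed, bases 2 to 8, in capitals.
hsa-let-7a-5p: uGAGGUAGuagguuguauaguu
The same seed is carried by let-7b, let-7c, let-7d, let-7e, let-7f, let-7g, let-7i and miR-98.

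Of 19 genes for let-7 processing, decay and silencing, 18 were tested, and 4 fell and 0 rose at day 3 (median change -0.17), against 15.3% of all tested genes that fell, a count of this size being near that background. AGO1, an Argonaute protein, fell by 0.90 (SE 0.14, adjusted p = 3.70e-04), TNRC6A, its silencing partner, by 0.69 (SE 0.20, adjusted p = 0.0175), XPO5, the exporter of microRNA precursors, by 0.61 (SE 0.12, adjusted p = 0.00177) and RAN, the GTPase of that export, by 0.58 (SE 0.19, adjusted p = 0.0343). Second probes disagreed for TNRC6A, at -0.07 (adjusted p = 0.806), and for AGO3, whose brighter probe did not pass (0.05) and whose other probe gave -0.93 (adjusted p = 2.29e-04). DICER1 and DROSHA, which cut the precursors, and TUT4, TUT7 and DIS3L2, which tail and degrade let-7 precursors bound by LIN28A, did not pass, with day 3 changes between -0.38 (DROSHA) and 0.29 (TUT4). At day 2 none of the 18 passed, and 1 fell with replicates 1 and 2 alone.

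Let-7 target genes moved in both directions. Of 26 listed, 23 were on the array and 20 were tested, and at day 3, 6 rose, 2 fell and 12 did not pass. Among all tested genes 14.3% rose and 15.3% fell. The median change was 0.04. CDK6, a G1 kinase, rose by 1.77 (SE 0.21, adjusted p = 2.90e-05) and PRDM1, a transcriptional repressor active in germ cell and lymphoid lineages, by 1.53 (SE 0.20). ARID3A rose by 0.82 (SE 0.16), IRS2, an insulin receptor adaptor, by 0.79 (SE 0.21) and CCND1, cyclin D1, by 0.78 (SE 0.14). MYCN, which is also a stem-cell-enriched transcription factor, fell by 1.46 (SE 0.14, adjusted p = 3.20e-06). The classic targets HMGA2 (0.43, adjusted p = 0.157) and IGF2BP1 (-0.21, adjusted p = 0.629) did not pass. At day 2, 6 rose and 1 fell, against 5.69% of all tested genes rising and 2.97% falling. With replicates 1 and 2 alone, 3 rose and 0 fell. Over 23 alternatives 1 to 6 rose at day 2.

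**Figure D3:**
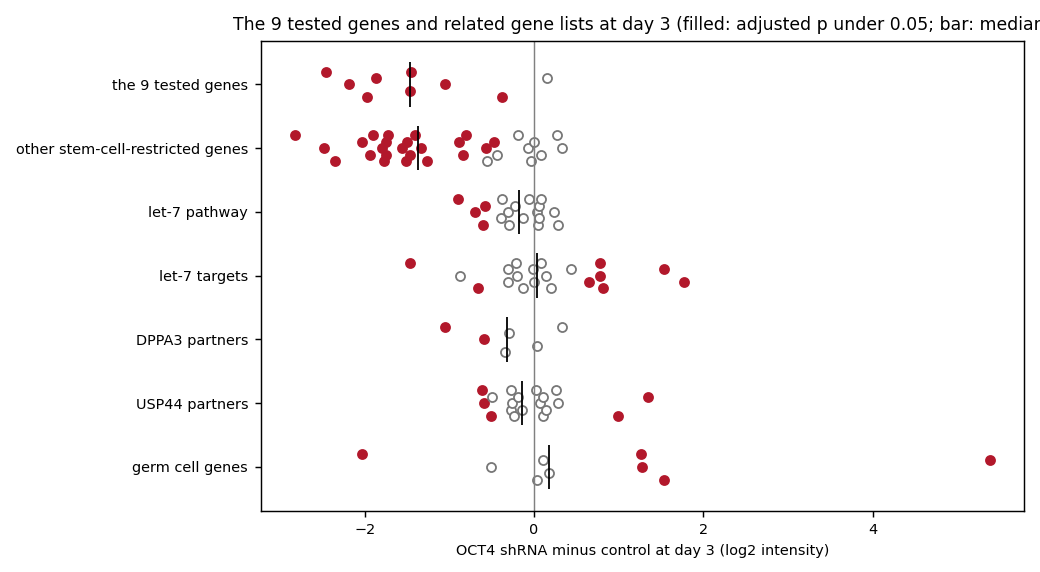
Day 3 change, knockdown minus control on the log2 scale, of the 9 tested genes and of the tested genes in each related list (filled, adjusted p under 0.05; open, not passed; bar, median). The 9 genes and the other stem-cell-restricted genes have medians of -1.46 and -1.37, while the other 5 lists have medians between -0.32 and 0.17.

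Most other listed transcripts restricted to stem cells fell at day 3. This list was written with earlier results of these arrays known, so its direction is not independent evidence. Of 39 genes besides POU5F1, 34 were on the array and 32 were tested. At day 3, 23 fell, 0 rose and 9 did not pass, with a median change of -1.37, against 15.3% of all tested genes falling. At day 2, 16 fell and 0 rose, with a median of -0.71, against 2.97% of all tested genes falling. With FOXD3, undetected in knockdown arrays on both days, set at its bound, these medians were -1.30 and -0.67. The largest day 3 falls were those of LRAT, which esterifies retinol (-2.82, SE 0.22), the long noncoding RNA LNCPRESS1 (-2.48, SE 0.17), VSNL1, a neuronal calcium sensor (-2.35, SE 0.16), TERF1, a telomere-binding protein (-2.03, SE 0.24), NANOG (-1.94, SE 0.18) and PRDM14 (-1.90, SE 0.17). ZFP42, better known as REX1, gave -0.04 (adjusted p = 0.928), and CD9 gave -0.55 (adjusted p = 0.0581). Among the 9 genes examined here, LIN28A and LIN28B were the only 2 with a day 3 change of under 1 log2 unit in the main fit. TRIM71 ranged from -1.17 to -0.91 over the alternatives.

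Germ cell genes, a list set beside the DPPA genes because several of these are active in germ cells, rose and fell. Of 20 listed, all were on the array and 9 were tested, and at day 3, 4 rose, 1 fell and 4 did not pass. The shares over all tested genes were 14.3% rising and 15.3% falling. SOX17 rose by 5.38 (SE 0.27, adjusted p = 1.09e-08) in the fit, with 3 of 3 knockdown arrays and 1 of 3 control arrays detected, so its size is uncertain. PRDM1 rose by 1.53 (SE 0.20, adjusted p = 7.59e-05), NANOS3, again with 3 of 3 knockdown and 1 of 3 control arrays detected, by 1.28 (SE 0.20, adjusted p = 2.66e-04) and KIT by 1.27 (SE 0.16, adjusted p = 6.40e-05). SOX17 also marks endoderm, and PRDM1 stands in the let-7 list as well. DAZL, a germ cell RNA-binding protein, was detected on 0 of 3 knockdown and 3 of 3 control arrays at day 3 and lay at least 1.84-fold lower (adjusted p = 1.37e-05). TFAP2C (0.10), PIWIL2 (0.03) and TDRD1 (0.17) did not pass at day 3.

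Markers of other cell types moved with the same comparison. Over all tested genes 14.3% rose and 15.3% fell at day 3, and 5.69% rose and 2.97% fell at day 2. Over the 5 tested of 6 endoderm markers, the summed normalised intensity was 15026 to 18704 in knockdown and 656 to 1564 in control arrays at day 3, and 6037 to 9176 against 994 to 1346 at day 2. All 5 rose at day 3, and CER1 was the brightest by far (mean log2 13.73 in knockdown and 9.68 in control arrays). At day 2 the other 4 rose, while GATA4 was undetected on all 6 arrays, and GATA6 was not tested. For the 6 mesoderm or primitive streak markers the sums were 6493 to 7715 against 530 to 1309 at day 3 and 4140 to 5873 against 408 to 609 at day 2. At day 3, 5 of these 6 rose and TBXT fell, and EOMES was the brightest by far (mean log2 12.29 in knockdown and 8.70 in control arrays). The sums over 7 tested markers of undifferentiated stem cells were 15449 to 15980 in knockdown and 30844 to 33079 in control arrays at day 3, and 14426 to 18929 against 25739 to 28370 at day 2. These sums include POU5F1, the shRNA target, and without it they were 14196 to 14923 against 21064 to 24378 at day 3 and 13134 to 17235 against 17793 to 20600 at day 2. Of the other 6 markers 4 fell at day 3, while ZFP42 (-0.04) and CDH1 (0.29) did not pass. Over 9 tested of 12 stromal markers they were 53355 to 68930 against 29642 to 33814 at day 3 and 45642 to 58700 against 39228 to 43565 at day 2, with COL3A1, DCN and POSTN not kept by the filter. Of these 9 stromal markers 7 rose at day 3, while THY1 fell by 2.22 (adjusted p = 2.13e-05) and PDGFRA did not pass, and TAGLN was the brightest by far (mean log2 15.23 in knockdown and 14.20 in control arrays). Trophoblast sums were 309 to 634 against 129 to 171 at day 3 and 238 to 458 against 158 to 232 at day 2, with CDX2, CGA and CGB3 not kept. Of the tested trophoblast markers, TFAP2A changed by 0.00 at day 3, and GATA3 and KRT7 were detected on 0 of 3 control arrays at day 3. Neuroectoderm sums were 5218 to 6237 against 2011 to 2492 at day 3 and 3939 to 5805 against 3148 to 3903 at day 2, with PAX6, SOX1 and ZIC1 not kept. Of the 3 tested neuroectoderm markers, NES (1.03, adjusted p = 0.00236) and OTX2 (2.20, adjusted p = 2.15e-07) rose at day 3. HES5 was undetected on every day 3 array and did not pass on either day (-0.14 at day 3 and -0.54 at day 2). The part of a changing cell mixture in the falls of the 9 genes was not tested.

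The knockdown effect was then compared between the days, which share no array in these comparisons. The fall was larger at day 3 than at day 2 for 2 of the 9 genes, DPPA2 and DPPA5, against 2.31% of all tested genes whose effects differed, 0.581% with the lower effect at day 3 and 1.73% with the higher. The difference was -0.97 for DPPA2 (SE 0.21, limma adjusted p = 0.0287) and -2.11 for DPPA5 (SE 0.36, adjusted p = 0.00685). Because DPPA5 was detected on 0 of 3 knockdown arrays at day 3, the size of its difference is not an exact value, and it was -1.31 without background correction and -1.29 on the authors' log2 values. The DPPA2 call was lost in 10 of 23 alternatives, at adjusted p up to 0.114. It was lost without knockdown day 3 replicate 1 (0.057) or 3 (0.0703), control day 3 replicate 1 (0.0568), 2 (0.0566) or 3 (0.0651), knockdown day 2 replicate 1 (0.0606) or 2 (0.0704), or control day 2 replicate 2 (0.0547) or 3 (0.0836), and with replicates 1 and 2 alone (0.114). The DPPA5 call held in all 23. For UTF1 the difference was -1.13 (SE 0.40, adjusted p = 0.205), which passed with replicates 1 and 2 alone (0.0283). For USP44 it was -0.78 (adjusted p = 0.141), passing only without knockdown day 2 replicate 3 (0.0295). TRIM71 (-0.68, adjusted p = 0.365), DPPA4 (-0.56, 0.565), L1TD1 (-0.48, 0.654), LIN28A (-0.32, 0.532) and LIN28B (0.09, 0.957) did not pass.

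Within the knockdown arrays, day 3 was lower than day 2 for 1 of the 9 genes, against 5.78% of all tested genes that changed, 1.87% lower and 3.91% higher. UTF1 changed by -1.20 (SE 0.28, limma adjusted p = 0.0225). The call was lost without knockdown day 3 replicate 1 (0.0808) or 2 (0.102), without knockdown day 2 replicate 1 (0.0955) or 3 (0.0522), without background correction (-0.70, adjusted p = 0.0689), with an offset of 50 (-0.76, 0.0565) and on the authors' log2 values (-0.68, 0.0712). DPPA5 (-0.83, adjusted p = 0.0796, undetected at day 3), DPPA2 (-0.52, 0.0618) and TRIM71 (-0.54, 0.166) did not pass, but passed with the replicate number as a block (0.00217, 0.0158 and 0.0482), where 4 of the 9 and 1611 of all genes passed. DPPA5 also passed with replicates 1 and 2 alone (0.0453), and TRIM71 without knockdown day 2 replicate 2 (0.047). The other 5 genes changed by between -0.40 (L1TD1) and 0.16 (LIN28B).

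Within the control arrays, none of the 9 genes passed between day 3 and day 2 (limma), whereas 0.247% of all tested genes did, 0.114% higher and 0.133% lower at day 3. At an unadjusted p under 0.05 there were 3 of the 9 and 1145 of all genes. DPPA5 had the largest change of the 9, 1.27 higher at day 3 (SE 0.26, adjusted p = 0.0606), and only 3 tested genes rose more in the fit. It passed with the replicate block (6.58e-04), under which 450 of all genes did, with an offset of 50 (0.0471), without control day 3 replicate 3 (0.0496) and without knockdown day 2 replicate 2 (0.0412). DPPA2 (0.45, adjusted p = 0.267), USP44 (0.42, adjusted p = 0.38) and DPPA4 (0.29, adjusted p = 0.743) did not pass. Each was also higher on every day 3 control array than on any day 2 control array. The share of all tested genes that separate in this way was not counted. These comparisons of the days share the control and knockdown arrays with those of knockdown and control.

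The order of the 4 groups differed between genes. DPPA2 and USP44 ran from day 3 knockdown through day 2 knockdown and day 2 control to day 3 control, as did DPPA4, L1TD1, TRIM71 and LIN28A by their means. Of the neighbours in this order, the 2 knockdown groups of DPPA4, L1TD1, TRIM71, LIN28A and USP44 overlapped, as did the 2 control groups of L1TD1, TRIM71 and LIN28A and the day 2 groups of TRIM71 and LIN28A. For UTF1 the 2 control groups overlapped and both knockdown groups lay below them without overlap. For DPPA5 the day 3 knockdown group was lowest and the day 3 control group highest, and the 2 day 2 groups between them overlapped.

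**Figure D4:**
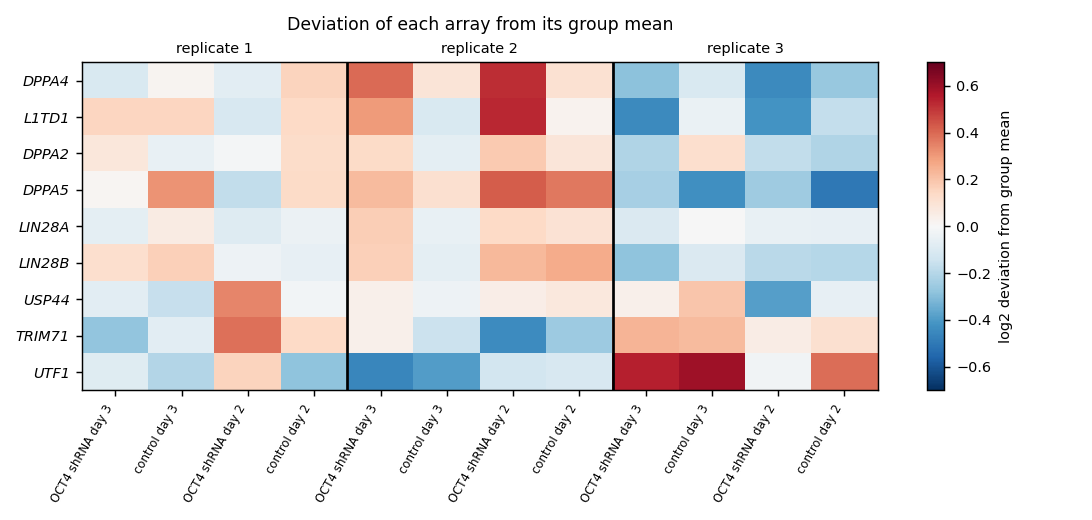
Deviation of each array from its group mean (colour, log2 units) for the 9 tested genes, in blocks of replicates 1, 2 and 3, each block with day 3 knockdown, day 3 control, day 2 knockdown and day 2 control. In replicate 3, DPPA4, DPPA5 and LIN28B are lowest in 4 of 4 groups and UTF1 is highest in 3 of 4.

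Arrays of the same replicate number deviated together in several of these genes. The replicate 3 array was the lowest of its group in 4 of 4 groups for DPPA4, DPPA5 and LIN28B and in 3 of 4 for DPPA2 and L1TD1. It was the highest in 3 of 4 groups for UTF1 and in 2 of 4 for TRIM71. The mean deviation of replicate 3 was -0.28 for DPPA4, -0.35 for DPPA5, -0.27 for L1TD1 and 0.38 for UTF1. Deviations of DPPA5 and UTF1 correlated at r = -0.78 across the 12 arrays, and those of DPPA5 and LIN28B at 0.85. The points share arrays, normalisation and replicate number. The labels do not say what a replicate number marks. With replicates 1 and 2 alone, the day 3 changes were -1.37 for DPPA4, -2.28 for DPPA5, -1.26 for L1TD1, -2.43 for UTF1 and -1.81 for DPPA2, against -1.46, -2.18, -1.46, -2.45 and -1.98 with all arrays.

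Among the other tested genes, those most like the mean profile of the 9 across the 12 arrays were MT1X, a metallothionein (r = 0.99), SEPHS1, a paralog of selenophosphate synthetase (0.99), the serotonin receptors HTR7 (0.98) and HTR3A (0.98), and VSNL1 (0.98). Their day 3 changes were -2.40, -1.79, -1.55, -2.29 and -2.35. The closest single genes were SFRP2, a secreted WNT modulator, for DPPA2 (0.99), AASS, a lysine-degrading enzyme, for DPPA4 (0.99), STAMBPL1 for UTF1 (0.98), PRKCQ-AS1 for L1TD1 (0.98) and ZSCAN2 for USP44 (0.98). DPPA5 was closest to NUP35, a nuclear pore protein (0.95), TRIM71 to PPARGC1B (0.94), LIN28A to KBTBD7 (0.96) and LIN28B to UGDH (0.95). These correlations are over 12 arrays in 4 groups and mix group differences with deviations inside groups. Deviations from the group means correlated with those of the mean profile at 0.50 for HTR3A and 0.66 for HTR7. They correlated at 0.94 for AASS with DPPA4, 0.94 for KBTBD7 with LIN28A and 0.97 for UGDH with LIN28B. UGDH, like LIN28B, did not pass on either day (0.17, adjusted p = 0.648 at day 3).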

How the data were processed

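RNA of 12 samples of H1 cells was read on Illumina bead arrays, 3 arrays for each of the 4 groups, and grouped by title. The deposited intensities are linear and not normalised, and each carries a deposited detection p-value, in steps of 1 in 759. The table of processed values deposited by the authors holds log2 intensities less a constant per array and a baseline per probe (remainder SD 1.71e-07; column medians -0.0146 to 0.0136). Which samples set that baseline is unknown, so it served only as an alternative. Scanner type and image software are not stated in the labels.

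Intensities were corrected, quantile-normalised and put on the log2 scale with neqc of limma 3.58.1 (R 4.3.3, offset 16), which estimated the background from the detection p-values. Of 48803 probes, 28098 are annotated to 1 gene, 13 to several and 20692 to none, and 28059 matched RefSeq by Entrez number. The 15407 probes with a detection p under 0.01 on 3 arrays or more were kept, and the brightest probe stood for each of 10506 genes. One limma model with 4 group means (8 residual and 5.20 prior degrees of freedom) gave 5 comparisons, and p-values were Benjamini-Hochberg adjusted over all 10506 genes and called under 0.05. Summed levels are sums of linear normalised intensities. The scripts were tested on simulated data.

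Same-numbered arrays deviated from their group means together, with correlations of 0.483, 0.389 and 0.738 at day 3, 0.22, 0.598 and 0.724 between the knockdown groups, 0.241, 0.214 and 0.666 between the control groups, and 0.022, 0.398 and 0.701 at day 2. The replicate number could thus pair the arrays except in the day 2 comparison, where replicate 1 did not correlate. The difference between days includes that comparison and was excepted as well. The main model held no pairing term, and the pairing entered only in the alternative with the replicate number as a block. The pairing rests on these data, and the labels do not state what a number marks.

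The genes and lists were chosen with earlier results of these data known. The rule named all 10 genes, up to 6 called genes with the largest day 3 changes per list, CDKN1A, EGR1, DCP1A and the genes closest in profile. Members of a list that are named without having passed, the germ cell and marker genes not kept, and the chromosomal neighbours were chosen after their values were seen. The alternatives were other background corrections, scalings, offsets, filters, probe summaries, variance models and sample sets, the replicate block, the authors' processed values and leaving out each array. The set of replicates 1 and 2 was added after seeing the data, because the replicate 3 arrays stood apart. Probe sequences were not used here.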

Additional observations from a re-analysis of the deposited data

Results flagged for a closer look

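The effect of OCT4 knockdown differed between the days for 2 of the 9 tested genes, by the limma test of the difference itself. For DPPA2 the day 3 change less the day 2 change was -0.972 on the log2 scale (adjusted p = 0.0287), from a day 3 change of -1.98 and a day 2 change of -1.01, and 10 of 23 alternatives lost this call (adjusted p from 0.00537 to 0.114). For DPPA5 it was -2.11 (adjusted p = 0.00685), from a day 3 change of -2.18 and a day 2 change of -0.08. The DPPA5 probe was detected on 0 of 3 knockdown arrays at day 3, so this size is not exact (-1.31 without background correction, -1.29 on the authors' log2 values), and its control arrays were also 1.27 higher at day 3 than at day 2 (adjusted p = 0.0606).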

How the results depend on the processing

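Over 24 alternatives, 23 for the difference between days, no called change of the 9 tested genes reversed. The same call was made throughout for 8 of 9 genes at day 3, 7 of 9 at day 2, 6 of 9 for the difference, 5 of 9 within the knockdown arrays and 8 of 9 within the control arrays. Fitting only the arrays compared was not possible for the difference, which needs all 12. Counts of called genes moved most with the replicate number as a block. At day 2 the replicate block called 1815 genes in place of 910, and there 4 of 6 arrays correlated best with the array of their own number in the other group, a hint from the data and not from the design. The block gave 756 in place of 243 genes for the difference between days, with UTF1 among them (-1.13, adjusted p = 0.0161). It gave 1611 in place of 607 within the knockdown arrays, with 4 in place of 1 of the 9, and 450 in place of 26 within the control arrays, with 1 in place of 0 of the 9. It changed no call of the 9 genes at day 3 or day 2. Within the knockdown arrays the 9 genes gave 0 calls without background correction, with an offset of 50 and on the authors' values, and 2 with replicates 1 and 2, and all tested genes gave 357 when only those arrays were fitted. Within the control arrays an offset of 50 gave 1 of the 9, detection on 6 arrays or more left 15 genes, and replicates 1 and 2 left 10. Leaving out 1 array at a time gave 2372 to 3249 genes and 7 to 8 of the 9 at day 3, 598 to 953 and 3 to 5 at day 2, 154 to 259 and 1 to 3 for the difference, 366 to 606 and 0 to 2 within knockdown, and 5 to 54 and 0 to 1 within control. Fewer arrays enter these fits, and the cause of the other shifts was not tested. Signals near background limit DPPA3, DPPA5 and the day 3 knockdown level of UTF1.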

Other observations

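The nearest protein-coding genes on either side of each of the 10 genes (RefSeq order) were read as a further description, a rule chosen after the data were seen. NTN4, which encodes the laminin-like protein netrin 4 and lies beside USP44, was at least 4.25-fold higher in knockdown at day 3 (limma adjusted p = 1.08e-07) and at least 1.49-fold higher at day 2 (adjusted p = 0.00293), while USP44 fell on both days. NTN4 was detected on 3 of 3 knockdown and 0 of 3 control arrays on each day, and the bounds are taken against the dimmest detected probe. METAP2, on the other side of USP44, changed by -0.12 at day 3 (adjusted p = 0.63). KANK4, beside L1TD1, was detected on 3 of 3 knockdown and 0 of 3 control arrays at day 3 and was at least 1.80-fold higher (adjusted p = 1.83e-05), and PATJ, on its other side, changed by -0.10 (adjusted p = 0.724).

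GDF3, a stem-cell-expressed TGF-beta family ligand beside the undetected DPPA3, fell by 0.80 at day 3 (adjusted p = 0.0015), and its day 2 change was -1.08 (adjusted p = 5.04e-04). NECTIN3, beside DPPA4, fell by 0.48 at day 3 (adjusted p = 0.0367), and CNOT10, a subunit of the deadenylase complex beside TRIM71, by 0.43 (adjusted p = 0.0141). The neighbours VENTX (-0.17, adjusted p = 0.707) of UTF1, DHDDS (-0.24, adjusted p = 0.304) of LIN28A, POPDC1 (0.13, adjusted p = 0.569) of LIN28B and KHDC1 (-0.10, adjusted p = 0.682) of DPPA5 did not pass at day 3.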
